A study of Mus musculus with 44 samples.

Results

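The Xlr3, Xlr4 and Xlr5 genes form a multicopy cluster on the mouse X chromosome, and their transcripts were followed here through the extraembryonic and embryonic cells that build the gut endoderm. The members were the 9 genes whose name in the gene tables was Xlr3a, Xlr3b, Xlr3c, Xlr4a, Xlr4b, Xlr4c, Xlr5a, Xlr5b or Xlr5c, out of 32287 gene identifiers. The members were chosen by their TPM at E9.5, where they were high in extraembryonic-derived gut cells (exGut) and near 0 in embryonic-derived gut cells (emGut), so that contrast is given below as a description and was not tested. Levels are given as TPM, the deposited expression value scaled by transcript length and library total, which can be compared between genes of a library.

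The 44 RNA-seq libraries came from embryos made by aggregating an mCherry+ morula of CD1/G4 background with GFP+ mouse embryonic stem cells of G4 background (the F1G4 line). The mCherry+ colony was kept by mating to C57BL/6J females, and its males were mated to CD1 females for these embryos. The stem cells form the embryo proper, and the morula supplies the extraembryonic tissues. At E6.5 the groups were epiblast (Epi), distal extraembryonic endoderm (exEndo 1) and proximal extraembryonic endoderm (exEndo 2), each dissected by hand from single wild-type embryos with 4 libraries a group. At E9.5 the groups were exMidgut, exHindgut, emMidgut, emHindgut and yolk sac endoderm (YsEndo), with 4 libraries a group from pools of 4 wild-type embryos. The gut cells were sorted as EPCAM+ epithelium, and the emGut gate took GFP+ cells with low mCherry. The paper describes the cells of this gate as embryonic cells that took up remnants of dying extraembryonic cells. It states that they may carry some transcripts from those remnants. The part of such transcripts in the emGut values was not tested. At E13.5 the groups were EPCAM+ cells of small intestine and colon endoderm, with 3 libraries a group from single embryos. Each sorted library held a small number of cells. There the GFP+ groups (emSI, emColon) were wild type and the mCherry+ groups (exSI, exColon) carried a Trp53 knockout made with Cas9.

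Lineage and strain changed together in every comparison of extraembryonic with embryonic cells, and at E13.5 the Trp53 genotype changed with them, so these cannot be told apart. The stem cells are described as a male line and came from 1 reporter clone driven by CAG at Rosa26, and the mCherry mice came from a line with a piggyBac EF1a reporter. Stage comparisons also change the dissection and the sort, and may change the mix of female and male embryos. The p-values measure the spread between libraries on each side of a comparison. Where a side pools midgut with hindgut, or organs without a term for organ, that spread includes the difference between them. The main fits treat libraries as independent, although tissues of a stage may come from the same embryos.

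The Xlr (X-linked lymphocyte-regulated) family encodes nuclear proteins related to SYCP3, a protein of the axis of meiotic chromosomes. Most knowledge of the family comes from germ cells, lymphoid cells and brain, where Xlr3b, Xlr4b and Xlr4c are known as imprinted genes read from the maternal X. In female mice the extraembryonic endoderm silences the paternal X, whereas the cells of the embryo proper silence either X at random.

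On the mm10 build the cluster runs from chrX:73074345 to chrX:73292976, a span of 219 kb. The order along the chromosome is Xlr4a, Xlr3a, Xlr5a, Xlr5b, Xlr3b, Xlr4b, Xlr4c, Xlr3c and Xlr5c. Xlr5a neighbours Xlr5b and Xlr4b neighbours Xlr4c, and the other adjacent genes are of different subfamilies. Xlr5b, Xlr3b and Xlr4b lie on the plus strand and the other 6 on the minus strand. Xlr3a, the highest of the 9 in group means of exEndo 1, occupies chrX:73086293-73097095. Xlr4b occupies chrX:73214333-73222453 and Xlr5c chrX:73282896-73292976. The annotated Xlr5a gene is an exception in length. Its transcript Xlr5a-201 covers 10068 bases, whereas Xlr5a-204 is annotated over 185342 bases and has 6 other members inside its span.

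**Figure D1:**
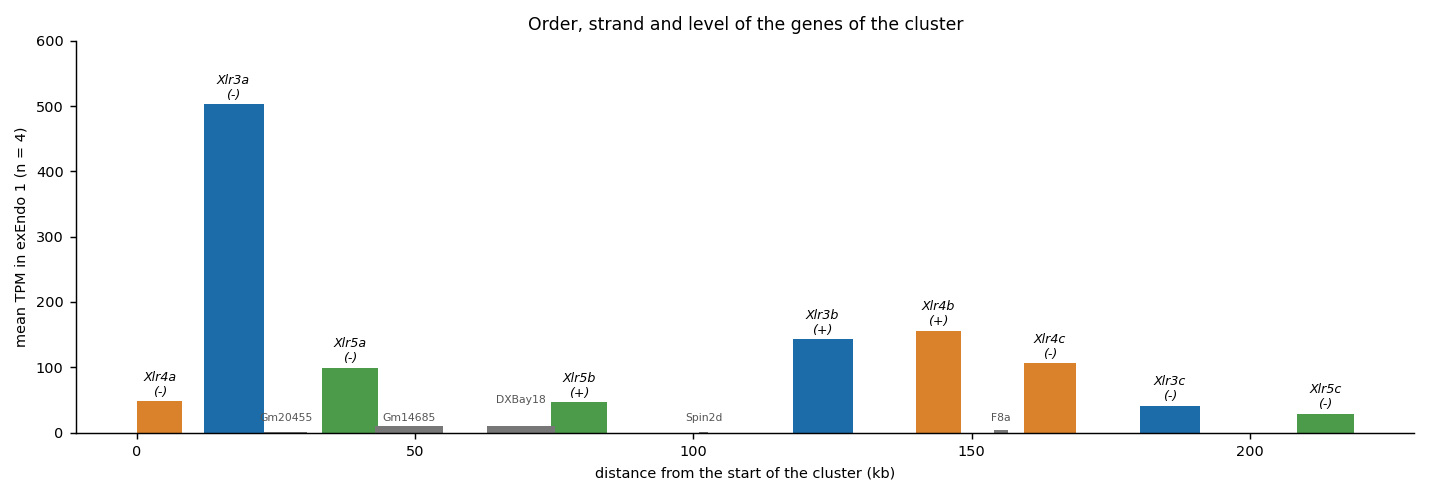
Position of the members (blue, Xlr3; orange, Xlr4; green, Xlr5; strand in brackets) and of the 5 other genes between them (grey) along the cluster, in kb from its start, with the mean TPM in exEndo 1 (n = 4) as height; Xlr5a is drawn as its transcript Xlr5a-201. Xlr3a stands highest, and the grey genes stay at or under 10.1 TPM.

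The annotated promoter sequences were alike within Xlr3, within Xlr4 and between Xlr5a and Xlr5b, but that of Xlr5c was unlike the other Xlr5 genes. RefSeq promoter windows (GRCm38.p6, the mm10 build), which hold 250 bases before and 50 bases after the annotated start, were found for all 9 members. The windows of Xlr3a, Xlr4b and Xlr5a are shown as examples of the 3 subfamilies, since members of all 3 were present together in every extraembryonic library, with each CpG in capitals.
Xlr3a, chrX:73097046-73097345, minus strand: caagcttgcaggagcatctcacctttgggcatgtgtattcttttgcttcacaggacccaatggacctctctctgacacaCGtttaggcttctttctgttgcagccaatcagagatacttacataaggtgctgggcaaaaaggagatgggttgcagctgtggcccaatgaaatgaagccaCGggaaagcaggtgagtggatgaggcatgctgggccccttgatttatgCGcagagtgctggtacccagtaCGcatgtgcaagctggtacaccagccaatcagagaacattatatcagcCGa
Xlr4b, chrX:73214083-73214382, plus strand: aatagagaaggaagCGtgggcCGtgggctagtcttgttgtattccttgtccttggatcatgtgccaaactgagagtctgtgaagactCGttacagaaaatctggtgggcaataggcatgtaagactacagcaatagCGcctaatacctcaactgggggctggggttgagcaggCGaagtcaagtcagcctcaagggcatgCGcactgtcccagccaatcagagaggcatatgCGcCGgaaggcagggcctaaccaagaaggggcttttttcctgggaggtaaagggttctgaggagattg
Xlr5a, chrX:73117653-73117952, minus strand: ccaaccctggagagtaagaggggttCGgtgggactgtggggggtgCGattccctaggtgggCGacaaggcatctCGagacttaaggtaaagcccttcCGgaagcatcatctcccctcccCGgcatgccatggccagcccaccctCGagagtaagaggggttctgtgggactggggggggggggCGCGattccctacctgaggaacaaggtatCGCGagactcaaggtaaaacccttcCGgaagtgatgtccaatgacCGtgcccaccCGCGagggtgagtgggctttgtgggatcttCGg
The Xlr3 windows hold 5 to 7 CpGs and the Xlr4 windows 7 or 8, against a median of 7.0 over 32851 mouse promoter windows of this length. Xlr5a and Xlr5b hold 16 CpGs each, and their windows were identical over 255 aligned bases. The RefSeq start of Xlr5c lies inside its GENCODE gene, and its window, with 1 CpG, aligned to that of Xlr5a over only 21 bases.

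Within Xlr4 the windows were 98.1% to 98.6% identical over 270 to 293 aligned bases, and within Xlr3 they were 87.8% to 94.3% identical over 236 to 280 bases. Between Xlr3 and Xlr4 only short stretches aligned. The longest run of letters held by all 6 Xlr3 and Xlr4 windows was CAGCCAATCAGAGA, which contains a CCAAT box and was picked after the sequences had been read. It occurred on either strand in 0.0487% of all promoter windows, or 16 windows, of which 6 are these genes. The last CCAAT box of each window is shown in capitals with the bases around it, so that the point where the subfamilies part can be seen. It lies within the shared run in all but Xlr3c, whose match to the run is elsewhere in its window.
Xlr3a, chrX:73097046-73097080, minus strand: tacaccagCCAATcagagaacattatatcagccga
Xlr3b, chrX:73192150-73192194, plus strand: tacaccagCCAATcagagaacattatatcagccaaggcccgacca
Xlr3c, chrX:73265395-73265439, minus strand: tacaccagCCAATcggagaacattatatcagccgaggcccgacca
Xlr4a, chrX:73082515-73082559, minus strand: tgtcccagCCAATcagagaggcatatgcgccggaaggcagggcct
Xlr4b, chrX:73214288-73214332, plus strand: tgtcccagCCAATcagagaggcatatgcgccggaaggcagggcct
Xlr4c, chrX:73243108-73243152, minus strand: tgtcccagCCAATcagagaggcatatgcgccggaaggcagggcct
The shorter CCAAT alone was in 8 of the 9 windows and in 37.4% of all windows. The E-box CACGTG, the E2F-like GCGGGAA and the TATA box TATAAA, searched on both strands, were in none of the 9 windows and in 7.15%, 4.60% and 13.6% of all windows.

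The copies are near-identical as transcripts, which limits how far reads can be assigned. The longest coding transcripts were 97.6% to 99.1% identical within Xlr3, 94.6% to 99.0% within Xlr4 and 98.9% to 99.3% within Xlr5. Of all 100-base windows of the coding transcripts, the share found in no other annotated gene was 52.2% for Xlr3a, 27.4% for Xlr3b and 53.3% for Xlr3c. It was 49.9% to 55.5% for the Xlr4 genes. It was lowest for Xlr5b at 18.7%, with 30.9% for Xlr5a and 33.3% for Xlr5c. Nearly all sharing was within a subfamily. Windows shared with another subfamily made up 4.93% of Xlr4a and 4.23% of Xlr3b, 0.610% of Xlr4c and none of the other members. Pseudogene copies named Xlr3d-ps, Xlr4d-ps, Xlr4e-ps, Xlr5d-ps and Xlr5e-ps also shared windows with the members, at 1.01% for Xlr3c, 4.30% for Xlr3b, 5.65% for Xlr4a, 10.6% to 13.9% for Xlr3a, Xlr4c and the Xlr5 genes, and 254 of 1588 windows for Xlr4b. The split between copies of a subfamily is therefore uncertain, and subfamily sums are given beside the single genes.

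**Figure D2:**
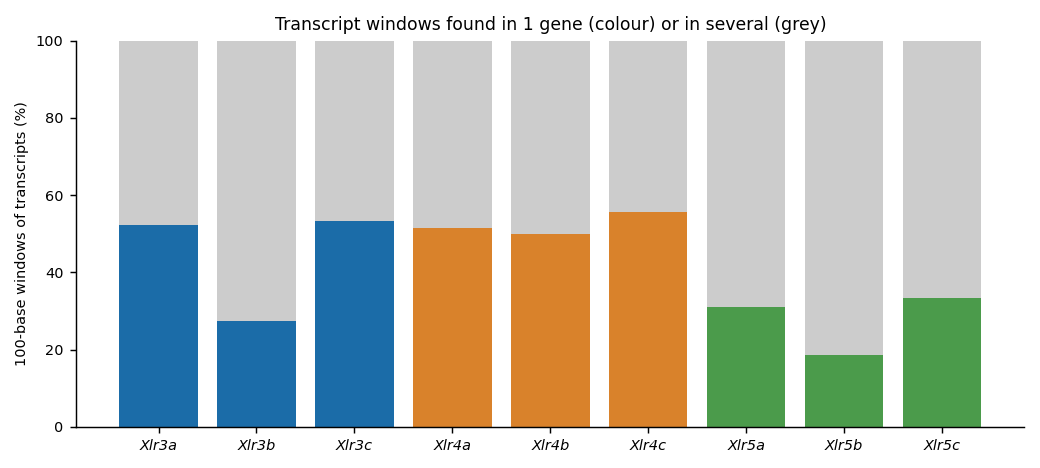
Share of each member's 100-base transcript windows that occur in that gene only (colour) or also in another annotated gene (grey), in percent. The coloured part is smallest for Xlr5b (18.7%) and largest for Xlr4c (55.5%).

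The reporters followed the labels. The mCherry reporter was between 1731 and 8667 TPM in the 26 extraembryonic libraries and at most 6.61 TPM in the 18 embryonic ones, and EGFP was at most 15.9 TPM in the former and at least 180 TPM in the latter. Trp53, the knocked-out gene, had a lowest, median and highest value of 33.4, 116.8 and 166.7 TPM in exSI and 42.5, 122.5 and 124.4 TPM in exColon, against 151 to 245 TPM in the E13.5 embryonic libraries. Those ranges overlap, so transcript level does not check the knockout label, and small Cas9 deletions need not lower it. Y-linked transcripts were low in the cells from the stem cell line described as male. Xist, the RNA that coats the inactive X, was at most 1.67 TPM in the 18 embryonic libraries, and 4 Y-linked genes (Ddx3y, Eif2s3y, Kdm5d and Uty) summed to at most 12.4 TPM. In the E13.5 extraembryonic libraries Xist was at most 1.37 TPM and the same Y-linked sum was 81.6 to 197 TPM. The part of this in the levels of an X-linked cluster was not tested. Between 10382 and 13596 genes exceeded 1 TPM per library, and 8 genes that every cell uses were at 0 in no library. No read totals were used, so the depth behind each value is unknown. The deposited per-base coverage of Xlr3a had a median of 571 in extraembryonic and 0.316 in embryonic libraries.

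In embryonic cells the cluster was near silent at every stage. Of the 162 values given by 9 members in 18 embryonic libraries, 105 were at 0 and 154 were under 1 TPM. The 8 values of 1 TPM or more were spread over 7 libraries. The highest were Xlr3a at 10.5 TPM in an emColon library and at 8.90 TPM in an emMidgut library. Each of these stood alone in its group, where the other libraries had at most 0.711 TPM. The rest were Xlr3b at 3.42 TPM in an emSI library, 2.22 in an emMidgut library and 1.86 in an emHindgut library, Xlr4a at 3.16 TPM in an emMidgut library and 1.12 in an emSI library, and Xlr3c at 1.16 TPM in the emColon library that was high for Xlr3a. All 3 Xlr5 genes and Xlr4b and Xlr4c stayed under 1 TPM in all 18.

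In extraembryonic cells all 9 members were detected in all 26 libraries. Their summed level ran from 664 to 1375 TPM, against at most 11.8 TPM in any embryonic library. For each of the 9 the lowest extraembryonic value lay above the highest embryonic value. The gap was narrowest for Xlr4a, with 10.6 TPM in an exSI library against 3.16 TPM in an emMidgut library. For Xlr5a it was 49.5 TPM in an exEndo 2 library against 0.787 TPM in an emMidgut library. This split over all libraries includes the E9.5 gut libraries that chose the members. The share of all genes with such a split was not counted, so how unusual it is was not tested. In bulk samples fewer expressing cells and less RNA per cell cannot be told apart.

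**Figure D3:**
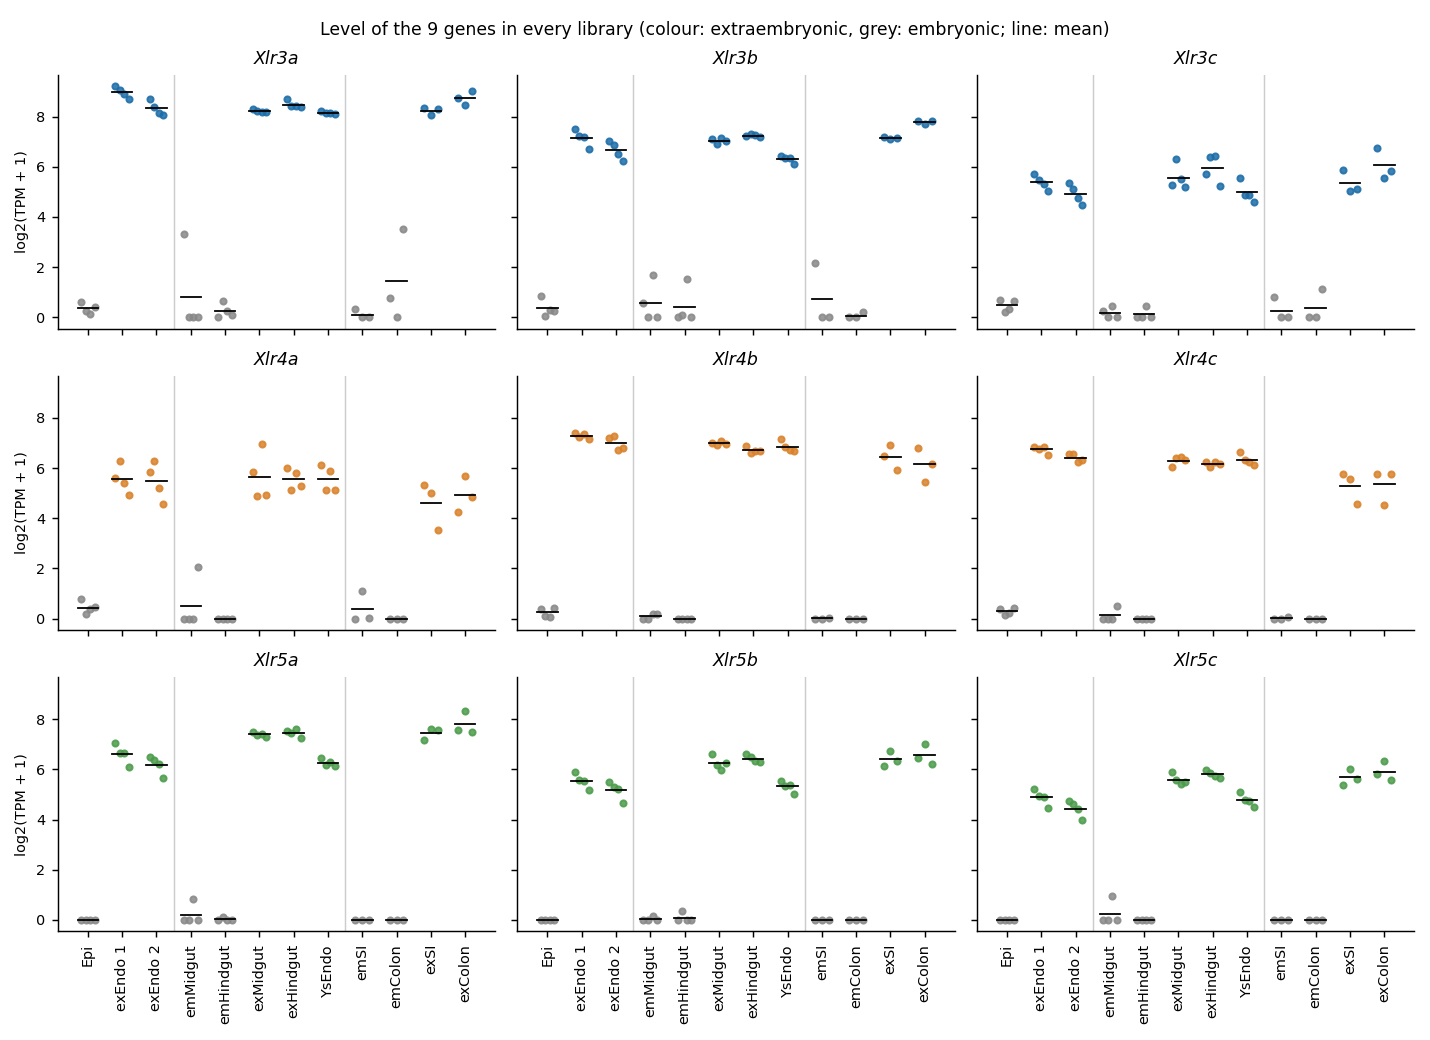
Level of each member as log2(TPM + 1) in each of the 44 libraries, by group (E6.5, E9.5 and E13.5 from left to right, divided by grey lines), with extraembryonic groups in colour, embryonic groups in grey and the group mean as a line. For every member the coloured points lie above all grey points, and the grey points of Xlr5a, Xlr5b and Xlr5c are at or near 0.

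At E6.5, outside the E9.5 contrast that chose the members, the cluster was high in both parts of the extraembryonic endoderm and nearly absent from the epiblast. Xlr3a was at 592, 532, 472 and 415 TPM in exEndo 1, at 410.0, 331, 284 and 269 TPM in exEndo 2 and at 0.514, 0.197, 0.105 and 0.328 TPM in Epi. The endoderm and epiblast values did not overlap. Xlr4b was at 169, 149.8, 163 and 142 TPM in exEndo 1, at 147, 155, 106 and 110.4 TPM in exEndo 2 and at most 0.340 TPM in Epi. Xlr5a was at 130.1, 98.8, 100.5 and 67.8 TPM in exEndo 1 and at 90.2, 80.8, 73.5 and 49.5 TPM in exEndo 2, whereas in Epi it was listed at 0 in 3 libraries and at 0.0118 TPM in the fourth.

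All 9 members passed the test in the direction of exEndo 1 over Epi (limma, Benjamini-Hochberg adjusted p under 0.05 and a difference over 1 in log2(TPM + 1)), where 19.8% of the 12057 genes tested were called higher. Only genes above 1 TPM in at least 4 libraries were tested. Every Epi value of the 9 was under 1 TPM, so they entered through the endoderm libraries alone. That fixed the direction of their calls here and in exEndo 2 against Epi. The differences ran from 4.88 (Xlr5c; SE 0.18) to 8.61 (Xlr3a; SE 0.16), with a median of 6.45 against a median of 0.09 over all genes. With values at or near 0 in Epi these differences depend on the pseudocount. With 0.1 in place of 1 they ran from 6.47 (Xlr3c) to 10.45 (Xlr3a), and Xlr5b moved from 5.54 to 8.83 and Xlr5c from 4.88 to 8.12. The limma adjusted p was 1.85e-11 for Xlr3a and 4.11e-08 for Xlr4a, the largest of the 9. In exEndo 2 against Epi, which uses the same Epi libraries, all 9 were also called higher, against 20.4% of 12046 genes, with differences from 4.43 (Xlr5c; SE 0.19) to 7.97 (Xlr3a; SE 0.17). Markers of visceral endoderm moved with these calls. The summed level of 8 of them was 3.37 to 6.09 TPM in Epi and 9226 to 15629 TPM in exEndo 1. Their part in the result was not tested. Epiblast markers summed to 1675 to 2892 TPM in Epi, 52.3 to 393 TPM in exEndo 1 and 5.39 to 35.1 TPM in exEndo 2.

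Between the distal and proximal endoderm the differences were small. All 9 members were higher in exEndo 1 than in exEndo 2 on average, by 0.08 (Xlr4a; SE 0.36) to 0.64 (Xlr3a; SE 0.15), and 0 of 9 passed both thresholds, where 6.41% of 11414 genes did. In that limma fit Xlr3a reached an adjusted p of 0.0161 at a difference under the threshold of 1, the other 8 were at 0.0975 or above, and 4 members were under 0.05 before adjustment. Libraries with the same number moved together in these tissues, and with the number as a block in the fit 5 members (Xlr3a, Xlr3b, Xlr3c, Xlr5a and Xlr5c) had a limma adjusted p under 0.05, still at differences under 1, where 18.5% of all genes had one at any fold in the same blocked fit. The Xlr3 sum was higher in exEndo 1 than in the same-numbered exEndo 2 library in all 4 pairs, at 821 and 579, 722 and 479, 654 and 399, and 549 and 364 TPM.

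The levels overlapped between endoderm libraries with and without Xist. In each endoderm tissue the libraries numbered 1 and 3 had Xist at 123 to 490.1 TPM and at most 0.0472 TPM summed over the 4 Y-linked genes, and those numbered 2 and 4 had Xist at 1.43 to 2.96 TPM and 108.7 to 164 TPM of the Y-linked genes. In exEndo 1 the Xlr3 sum was 821 and 654 TPM in the Xist-high libraries and 722 and 549 TPM in the others, so the sets overlapped. The Xlr4 sum was 329.9 and 318 TPM against 335 and 263 TPM. The Xlr5 sum was 225 and 174.8 TPM against 175.02 and 124 TPM, a bare overlap. In exEndo 2 the Xlr3 sum was 579 and 399 TPM against 479 and 364 TPM. There the Xlr4 sum was 296 and 215 TPM against 326 and 212 TPM, and the Xlr5 sum 160 and 130 TPM against 143 and 88.4 TPM. In both tissues the highest Xlr3 and Xlr5 sums were in Xist-high libraries and the lowest in the others. Because same-numbered libraries of these tissues appear to pair, exEndo 2 is no separate observation of this order. With 2 libraries of each kind no test was made.

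At E9.5 the cluster was described rather than tested in the contrast that chose it. By the thresholds used elsewhere all 9 members were higher in exGut than in emGut, an outcome that the choice of members fixed, and 1.08% of 13473 genes were. The lowest, median and highest of the 8 exGut values were 117, 142 and 156 TPM for Xlr3b, 97.0, 118 and 133 TPM for Xlr4b and 150.2, 171 and 196 TPM for Xlr5a. In the 8 emGut libraries the highest values of the same genes were 2.22, 0.129 and 0.787 TPM. Within exGut, exHindgut and exMidgut differed by 0.38 or less in either direction, and limma called 0 of 9 members, where 11.3% of 12331 genes were called; before adjustment only Xlr3a had a p under 0.05. The 95% intervals of these differences reached from -0.92 to 1.01 over the 9 members. Visceral endoderm markers summed to 7245 to 17248 TPM in exMidgut, 126 to 711 TPM in exHindgut, 1521 to 3263 TPM in emMidgut and 40.2 to 123 TPM in emHindgut. Their part in the levels of the members was not tested.

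The yolk sac endoderm, which descends from the proximal endoderm, also had the cluster on. Xlr3a was at 293, 277, 279 and 277 TPM in the 4 YsEndo libraries, Xlr4b at 141, 113, 104 and 102 TPM and Xlr5a at 86.2, 70.4, 77.4 and 69.5 TPM. Compared with exEndo 2, limma called 0 of 9 members, where 29.6% of 11205 genes were called, and 0 of 9 had a p under 0.05 before adjustment. The differences ran from -0.34 (Xlr3b; SE 0.16; limma adjusted p = 0.0746) to 0.34 (Xlr5c; SE 0.19; limma adjusted p = 0.122). The median of all genes was -0.41 in that comparison, and after rescaling each library by its median ratio to the others Xlr3a (0.23), Xlr3b (0.07), Xlr4b (0.25) and Xlr4c (0.32) changed sign. The remaining members moved further up, to 0.46 (Xlr3c), 0.49 (Xlr4a), 0.48 (Xlr5a), 0.56 (Xlr5b) and 0.74 (Xlr5c). The result of little difference therefore depends on the scaling.

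At E13.5 the cluster was again present in extraembryonic-derived epithelium of both organs and nearly absent from embryonic-derived epithelium. Xlr3a was at 321, 264 and 309.6 TPM in exSI and 431, 352 and 516 TPM in exColon, and at 0.253, 0 and 0 TPM in emSI and 0.711, 0 and 10.5 TPM in emColon. Xlr4b was at 88.0, 119.5 and 60.4 TPM in exSI and 110.3, 43.0 and 71.0 TPM in exColon, and its highest embryonic value was 0.0248 TPM. Xlr5a was at 143, 195 and 189 TPM in exSI and 188, 320.4 and 180.3 TPM in exColon, and was listed at 0 in all 6 embryonic libraries. No extraembryonic value of these genes fell into the embryonic range.

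With organ in the model, all 9 members were called higher in the extraembryonic cells (limma), where 0.481% of 12483 genes were. The 9 met the requirement of TPM above 1 in at least 3 libraries through the extraembryonic libraries, so the direction of their calls was not open. The differences ran from 4.59 (Xlr4a; SE 0.52; adjusted p = 6.23e-05) to 7.71 (Xlr3a; SE 0.48; adjusted p = 2.02e-08), with the lowest adjusted p, 5.61e-10, for Xlr5a (7.62; SE 0.37). The median of the 9 was 6.29, and that of all genes was 0.11. The 3 Xlr5 genes were listed at 0 in all 6 embryonic libraries, so the size of their differences is set by the pseudocount and is no estimate of a fold. Values all at 0 show no spread between libraries, so the SE and adjusted p of these genes also depend on that floor. With a pseudocount of 0.1 the 9 differences ran from 7.41 (Xlr4a) to 10.94 (Xlr5a). These calls carry the Trp53 knockout of the extraembryonic cells with them. Visceral endoderm markers summed to 1764 to 5232 TPM in the E13.5 embryonic libraries and to 3400 to 9047 TPM in the extraembryonic ones. Their part in the result was not tested.

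No member passed the test between extraembryonic colon and small intestine. Colon minus small intestine differences of the extraembryonic cells ran from -0.30 (Xlr4b; SE 0.40) to 0.71 (Xlr3c; SE 0.43), limma called 0 of 9 and 0.693% of 11405 genes, and Xlr3a and Xlr3b were under p of 0.05 before adjustment. Xlr3a was at 264 to 321 TPM in exSI and 352 to 516 TPM in exColon, and the Xlr3 sum at 431 to 523 and 605 to 794 TPM, both without overlap. The Xlr3b values did not overlap either, at 144, 136 and 140.2 TPM in exSI and 224, 207 and 223 TPM in exColon, with a difference of 0.63 (SE 0.23; limma adjusted p = 0.322). For the interaction of origin with organ limma called 0 of 9 members and 0.016% of genes, and 0 members were under 0.05 before adjustment. With 3 libraries a group the SE of that interaction was 0.74 to 1.04 for the members, so that a moderate difference between organs was not detectable.

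**Figure D4:**
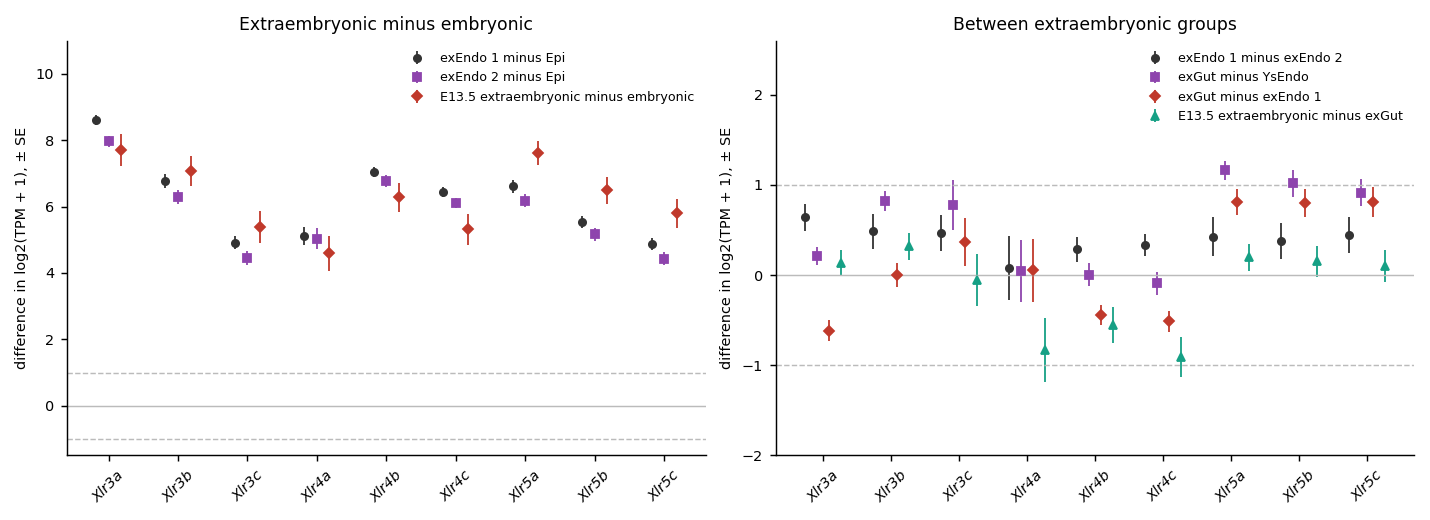
Difference in log2(TPM + 1) with its SE for each member, on the left for extraembryonic minus embryonic groups and on the right between extraembryonic groups; dashed lines mark a difference of 1 in either direction. On the left all points lie between 4.43 and 8.61. On the right the Xlr5 genes reach 0.92 to 1.16 in exGut minus YsEndo, whereas Xlr4b and Xlr4c lie at 0.00 and -0.09.

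Among extraembryonic groups the subfamilies did not keep a fixed proportion. From exEndo 1 to exGut, Xlr5a, Xlr5b and Xlr5c were higher by 0.81 (SE 0.14), 0.80 (SE 0.16) and 0.81 (SE 0.16). Over the same step the difference was -0.61 (SE 0.12) for Xlr3a, -0.44 (SE 0.11) for Xlr4b, -0.51 (SE 0.12) for Xlr4c, 0.00 (SE 0.13) for Xlr3b, 0.37 (SE 0.26) for Xlr3c and 0.05 (SE 0.35) for Xlr4a. The exGut libraries belong to the contrast that chose the members, so these differences are given as a description. All 9 lay within the size threshold of 1, although 6 had an adjusted p under 0.05 in the limma fit, and 30.3% of 12931 genes passed both thresholds. The median of all genes was 0.13, and under median-ratio rescaling the same values became 0.66 for Xlr5a, -0.77 for Xlr3a and -0.60 for Xlr4b.

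Against YsEndo the exGut cells showed the same tilt. Xlr5a was higher by 1.16 (SE 0.10) and Xlr5b by 1.02 (SE 0.15), the 2 of 9 members past both thresholds, where 42.4% of 12801 genes were called and 32.3% were called higher. That is a smaller share of the members than of all genes. The exGut libraries belong to the contrast that chose the members, so these differences too are given as a description. Xlr5c followed at 0.92 (SE 0.15) and Xlr3b at 0.82 (SE 0.11). Xlr4a, Xlr4b and Xlr4c were at 0.05, 0.00 and -0.09. The median of all genes in this comparison was 0.59, and 4138 genes were called higher and 1285 lower. With median-ratio rescaling the split was 2719 and 2246, no member passed, and the values became 0.59 for Xlr5a, -0.57 for Xlr4b and -0.66 for Xlr4c.

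Shares of the summed TPM of the 9 genes within each library do not depend on that scaling. The Xlr5 share was 13.2% to 16.3% in exEndo 1, 13.3% to 17.5% in exEndo 2 and 17.6% to 18.7% in YsEndo. In the gut it was 25.0% to 31.2% over the 8 exGut libraries and 24.2% to 42.2% over the 6 libraries of E13.5. No gut library fell within the range of the E6.5 and yolk sac libraries. The 8 exGut libraries belong to the contrast that chose the members. These shares, and the mix of copies and order of groups below, are therefore given as a description. The Xlr4 share went the other way between stages, from 24.0% to 34.4% at E6.5 to 9.26% to 19.8% at E13.5, with YsEndo at 29.3% to 34.3% and exGut at 17.9% to 31.4%. The Xlr3 share was 57.0% to 59.7% in exEndo 1, above the 43.6% to 52.9% of exGut without overlap. It was 50.5% to 56.0% in exEndo 2, 47.4% to 53.1% in YsEndo and 43.4% to 63.7% at E13.5, which overlap exGut.

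The mix of copies inside Xlr3 shifted along the same line. Xlr3a made up 72.1% to 75.5% of the Xlr3 sum in exEndo 1, 69.1% to 73.7% in exEndo 2 and 69.0% to 75.2% in YsEndo, but 58.7% to 67.2% in exGut and 56.6% to 64.9% at E13.5. The share of Xlr3b was 20.1% ± 1.14 (SD, n = 4) in YsEndo and 26.9% ± 2.10 (SD, n = 8) in exGut. The Xlr5 mix was steadier. Xlr5a made up 53.6% ± 2.40 (SD, n = 4) of the Xlr5 sum in YsEndo, 56.7% ± 1.38 (SD, n = 4) in exEndo 1 and 56.6% ± 3.16 (SD, n = 8) in exGut. Since copies share much of their sequence, a change in the split between Xlr3a and Xlr3b carries the uncertainty of read assignment, which was not tested.

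**Figure D5:**
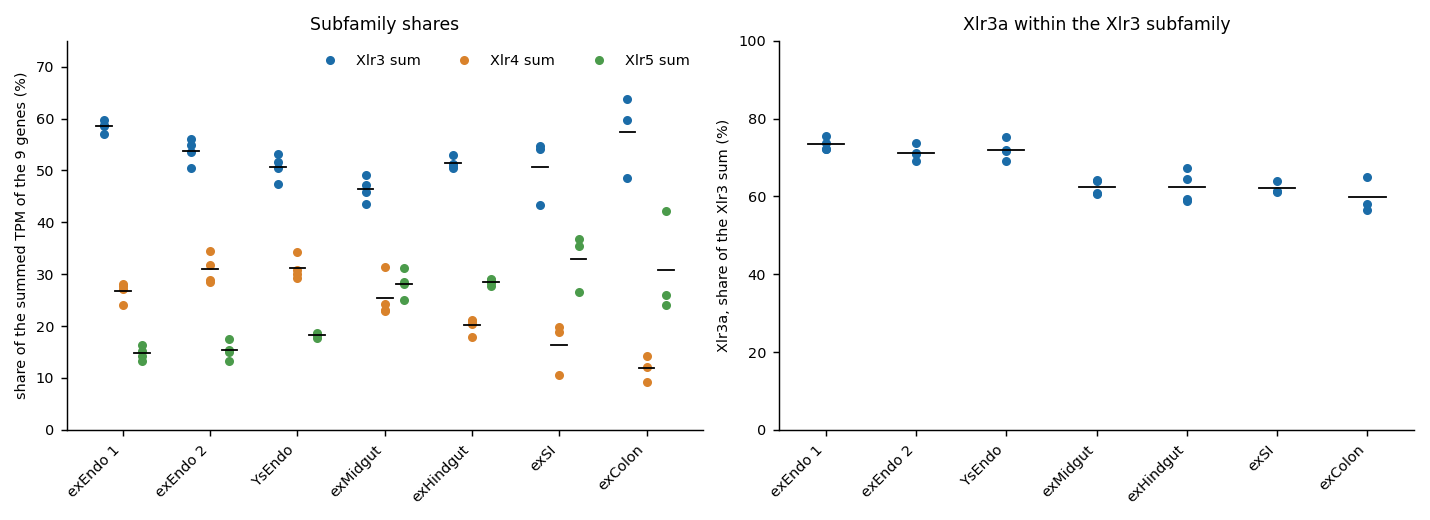
Left, share of the summed TPM of the 9 members held by Xlr3, Xlr4 and Xlr5 in each extraembryonic library (points) with group means (lines), in percent. Right, share of the Xlr3 sum held by Xlr3a; the Xlr5 points of the 4 gut groups lie at or above 24.2% while those of exEndo 1, exEndo 2 and YsEndo lie at or below 18.7%.

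The order of the groups differed by subfamily. For the Xlr3 sum, exColon was highest at 720.4 ± 101 TPM (SD, n = 3), followed by exEndo 1 at 686 ± 114 TPM (SD, n = 4), exHindgut at 569 ± 42.3, exSI at 479 ± 46.0, exMidgut at 478 ± 19.3, exEndo 2 at 455 ± 95.2 and YsEndo at 391.8 ± 24.1 TPM. Each neighbour in that order overlapped in range with the next. For the Xlr4 sum, exEndo 1 was highest at 312 ± 33.1 TPM and the E13.5 groups lowest, at 157 ± 55.2 in exSI and 149.6 ± 33.1 in exColon, again with overlap between neighbours. For the Xlr5 sum the 4 gut groups led, from exColon at 386 ± 123 TPM to exMidgut at 291 ± 29.4 TPM. The step from exMidgut to exEndo 1, at 175 ± 41.2 TPM, was the only place where neighbouring ranges did not overlap.

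From exGut to E13.5 the Xlr3 and Xlr5 genes stayed between -0.05 and 0.32 and the Xlr4 genes were lower, at -0.83 (Xlr4a; SE 0.35), -0.56 (Xlr4b; SE 0.20) and -0.91 (Xlr4c; SE 0.22). None of the 9 passed both thresholds, against 12.4% of 13460 genes, and this comparison too uses exGut libraries and is not independent of the choice of members. The median of all genes was -0.28. Stage, single embryos against pools, the Trp53 knockout and the sex mix of the embryos, as read from Xist, change together here and cannot be told apart. Xist was at 22.3 to 113 TPM in the 8 exGut libraries and at most 1.37 TPM in the E13.5 extraembryonic ones. The part of the sex mix in these differences was not tested.

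Relatives elsewhere in the genome shared the pattern in part. Xlr, the founding gene of the family, was at 11.04 to 14.3 TPM in Epi and lower in exEndo 1, at 3.43 to 9.32 TPM (difference -1.05, SE 0.27, limma adjusted p = 0.00514), the opposite direction to the 9 members. At E9.5 it was at 0 to 26.9 TPM in exGut, 10.5 to 22.2 TPM in YsEndo and 0 to 2.79 TPM in emGut, and passed the test in exGut over emGut (difference 2.53, SE 0.56, limma adjusted p = 0.0128), the same direction as the members. In the E13.5 extraembryonic cells Xlr varied from 0 to 44.3 TPM and was listed at 0 in all 6 embryonic libraries (difference 2.28, SE 0.86, limma adjusted p = 0.308). Sycp3 was at 26.7 to 60.5 TPM in Epi and 15.7 to 20.01 TPM in exEndo 1 (difference -1.08, SE 0.22, limma adjusted p = 0.00130). In exEndo 2 it was at 18.8 to 59.3 TPM and not called against Epi (difference -0.29, SE 0.33, limma adjusted p = 0.460). It did not exceed 3.48 TPM in any E9.5 or E13.5 library. Slx, Slxl1 and Sly, the multicopy relatives on the sex chromosomes, did not exceed 0.403 TPM in any library.

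Genes around the cluster were mixed. Within 1 Mb of the outermost members lie 52 other genes of the tables, of which 30 were tested in exEndo 1 minus Epi, and 8 were called higher and 4 lower, against 33.4% of all genes called in either direction. The higher ones included Pnma5, 37 kb before the cluster, at 0.127 TPM in Epi and 41.4 TPM in exEndo 1 (difference 5.24, SE 0.17, limma adjusted p = 1.14e-09). Gm14685 and DXBay18, which lie between members and overlap the annotated starts of Xlr5a-201 and Xlr5b, were at 10.1 and 9.60 TPM in exEndo 1 and 0.0134 and 0.0113 TPM in Epi. Because the libraries do not mark strand, reads from such overlaps cannot be assigned. The other 5 were Zfp185, Haus7, a subunit of the augmin complex, Ssr4, a subunit of the signal sequence receptor, Renbp and Dnase1l1. The 4 lower ones were Gabre and Gabra3, subunits of the GABA-A receptor, Pdzd4, and Flna, an actin crosslinker.

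At E13.5 limma called 0 of 30 neighbours tested, where 0.625% of all genes were called, and 8 of the 30 neighbours and 1415 of 12483 genes had a p under 0.05 before adjustment. Pnma5 was listed at 0 in the 6 embryonic libraries and averaged 8.64 TPM in the extraembryonic ones (difference 2.12, SE 0.78, limma adjusted p = 0.297). Haus7 was at 67.7 and 115 TPM on average (difference 0.63, SE 0.28), and Renbp at 40.7 and 66.8 TPM (difference 1.32, SE 0.62).

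The 5 genes outside the cluster whose group means over the 12 groups correlated best with the Xlr3 sum were the mCherry reporter (Pearson r = 0.992), Mageb16 (0.992), Rhox5 (0.983), Gm14408 (0.963) and Tex19.1 (0.959), among 14689 genes. The groups fall into an embryonic set near 0 and an extraembryonic set, so this r mostly measures that split and is given without a p. Mageb16, a MAGE family gene of the X chromosome at chrX:79623231-79671435, was between 26.2 and 84.2 TPM in the extraembryonic libraries and at most 8.05 TPM in the embryonic ones. Rhox5, a reproductive homeobox gene at chrX:37804842-37808876, was between 740.1 and 2005 TPM and at most 24.1 TPM. Tex19.1, a gene of germ cells and placenta on chromosome 11, was between 4.50 and 88.5 TPM and at most 8.64 TPM, so its ranges overlapped.

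None of the following marker lists separated all extraembryonic from all embryonic libraries. Germ cell markers (7 genes) summed to 33.8 to 64.9 TPM in exEndo 1 and 13.2 to 40.5 TPM in Epi. At E9.5 the highest sums were in emMidgut, at 104 to 352 TPM, and Dppa3, an early germ cell marker, was at up to 224 TPM there and at most 0.462 TPM in exGut. Ddx4 was at 7.79 to 44.6 TPM in the E6.5 endoderm and at most 3.17 TPM in exGut. Kit, of the same list, went the other way, at 1.81 to 7.99 TPM and 14.5 to 49.9 TPM. The sum of the list was 18.3 to 64.9 TPM in the E6.5 endoderm and 53.1 to 128 TPM in exGut. Lymphocyte markers (4 genes), listed because the family was named for lymphocytes, summed to at most 5.81 TPM in any library, and Cd3e and Rag1 were at 0 in exGut and YsEndo. Gut epithelium markers were present in the gut libraries of each origin, with sums of 1253 to 3448 TPM over the E9.5 groups and 1948 to 3230 TPM at E13.5, though Sox17 was at 0 in emColon, exSI and exColon. Blood markers summed to at most 11.8 TPM, and mesenchyme markers reached 307 TPM in an emSI library and 88.0 TPM in exEndo 2. Parietal endoderm markers were highest in exEndo 2, at 947 to 1511 TPM, and trophoblast markers reached 116 TPM there and 125 TPM in Epi. Neural markers reached 54.2 TPM in Epi and 58.8 TPM in emMidgut. The part of these lists in the results was not tested.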

How the data were processed

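Libraries were made from poly(A)+ RNA by template switching and a Nextera XT kit, which does not mark strand. Read trimming was done by the authors in cutadapt 4.1, alignment to mm10 in STAR 2.7.9a and gene quantification in StringTie 2.0.6 (versions from the submitters' processing notes). The deposited tables give, per gene and library, TPM, FPKM and coverage as StringTie wrote them; no read counts were used, so sampling error is unknown. TPM was summed per gene identifier. Gene types came from GENCODE vM21 (32235 of 32287 identifiers matched), and promoter windows from RefSeq on GRCm38.p6.

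Each comparison was fitted with limma 3.58.1 (R 4.3.3) on log2(TPM + 1), which understates changes of low genes, with trend and Benjamini-Hochberg adjustment over all protein-coding genes outside chromosome Y with TPM above 1 in at least 4 libraries, or 3 where a group has 3. Calls needed an adjusted p under 0.05 and a difference over 1; the interaction needed only the p. Tests are two-sided. The fit was tested on simulated data. Alternatives were a pseudocount of 0.1, no filter, FPKM, quantile normalization, median-ratio rescaling, a fit without trend, non-coding genes included, each library left out in turn, and a replicate block.

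Same-numbered exEndo 1 and exEndo 2 libraries correlated in their deviations from the group means at 0.146 to 0.380 in all 4 pairs, so the numbers pair these tissues; the labels do not say so. Transcript and promoter alignments used Biopython 1.88. No 2 libraries were identical. The members, the gene lists and the tests were chosen with earlier results of these data known. Named genes were the 9 members, a list of relatives, neighbours within 1 Mb that were called at E6.5 or E13.5, and the 5 genes most alike.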

Additional observations from a re-analysis of the deposited data

Results flagged for a closer look

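A library was flagged where it stood far from the other 3 of its group by Dixon's test, with 18 flags in 96 groups of 4 checked; chance flags about 1 in 20 groups, and values near 0 with the others at 0 are flagged readily. The groups overlap, since a subfamily sum repeats its members.

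Most flags were low values in embryonic libraries. In emMidgut, Xlr3a was at 8.90 TPM in replicate 1. Replicate 3 of that group had Xlr5a at 0.787, Xlr5b at 0.105 and Xlr5c at 0.928 TPM, with an Xlr5 sum of 1.82 TPM, and replicate 4 had Xlr4a at 3.16 and Xlr4c at 0.419 TPM, with an Xlr4 sum of 3.70 TPM. In emHindgut, replicate 3 had Xlr3b at 1.86 and Xlr3c at 0.382 TPM, and replicate 2 had Xlr5a at 0.0965 and Xlr5b at 0.289 TPM, with an Xlr5 sum of 0.386 TPM. In Epi, replicate 1 had Xlr5a at 0.0118 and Xlr5c at 0.0117 TPM, with an Xlr5 sum of 0.0235 TPM. Different members stood out in different libraries.

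In extraembryonic groups there were 2 flags. The Xlr4 sum was 341 TPM in exMidgut replicate 3, where the other 3 libraries had 231 to 246 TPM, and Xlr3a was at 293 TPM in YsEndo replicate 1, where the others had 277 to 279 TPM.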

How the results depend on the processing

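Of 237 alternative values for the counts of members called, 230 were within 1.5 times the value given, and in 12 of 13 comparisons none moved further. The exception was exGut minus YsEndo, where 2 members were called and the count fell to 1 with FPKM, 1 with quantile normalization and 0 with median-ratio rescaling; without YsEndo replicate 4, exHindgut replicate 1, exHindgut replicate 2 or exMidgut replicate 1 it was also 1, and over all libraries left out in turn it ran from 1 to 3. The cause was not tested. Xlr5b lay at 0.91 with FPKM and 0.73 with quantile normalization there.

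In exGut minus emGut, which had no test, the 9 differences of 5.34 to 7.81 became 8.26 to 10.2 with a pseudocount of 0.1 and 4.51 to 7.02 with FPKM. The E13.5 interaction of Xlr3a was -0.80, and 0.24 without emColon replicate 3. Counts over all genes moved by more than 1.5 times in colon against small intestine (79, against 11 with pseudocount 0.1 and 2 with no filter, and 7 to 51 without single libraries that moved it) and in the interaction (2, against 0, 14 with no filter, 6 without trend and 0 or 1 without most single libraries). The share of calls that were higher moved by over 10 points with quantile normalization in YsEndo minus exEndo 2 (891 higher and 2424 lower against 1272 and 1153), in exGut minus exEndo 1 (2436 and 1488 against 1912 and 1960) and in E13.5 extraembryonic minus exGut (374 and 1292 against 633 and 603). Among the 5 genes most like the Xlr3 sum, 3 remained with pseudocount 0.1. As a percentage of the exMidgut mean, the Xlr3 sum by FPKM was 88.8% in YsEndo and 114% in exSI.

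With the replicate number as a block, all member counts were as given, at 9 called in exEndo 1 minus Epi, 9 at E13.5 and 0 in exEndo 1 minus exEndo 2, and the counts over all genes changed by at most 1.5 times (276 against 316 in exGut minus emGut, 93 against 78 at E13.5). Outside the exEndo pair no pair of groups had every same-number correlation over 0.1, with values from -0.16 to 0.18. The own number was best in 27 of 36 E13.5 checks, 45 of 80 at E9.5 and 11 of 24 at E6.5. Same-number correlations between exSI and emSI were 0.051 to 0.066, above the other-number ones of -0.045 to -0.0065. They were also all higher between exColon and exSI, emColon or emSI, but not between emColon and exSI or emSI. Pairing of those libraries is therefore not settled.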
